A study of Mus musculus with 48 samples.

Results

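The comparison described here set left ventricles of normoxically perfused hearts from mice aged 32 weeks against those from mice aged 8 weeks. All arrays labelled normoxic at these ages were taken, 6 hearts of 32 weeks and 6 hearts of 8 weeks, which make 12 of the 48 arrays of the series. The donors of both groups were male C57BL/6 mice with no genetic modification named, bought at 7 weeks of age, so the 32-week mice had spent 25 weeks in the facility and the 8-week mice 1 week. Each heart was removed under pentobarbital and perfused outside the body on a Langendorff apparatus (retrograde, through the aorta), with 20 min of stabilisation and then 70 min of oxygenated perfusion, matched in time to the other protocol of the series, ischaemia for 25 min with reperfusion for 45 min (I/R). RNA of the ventricle was measured on Illumina bead arrays, 1 array per heart. A perfused heart no longer receives blood, nerve signals or hormones, and both groups were collected after the same time in that state. The 2 ages are separate animals, and neither slides nor run dates of the arrays are given, so age cannot be told apart from a batch that followed it.

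In the mouse, 8 weeks marks early adulthood and 32 weeks mature adulthood, well before old age. Over this period the ventricle stops growing fast, and the fibroblasts that lay down collagen and elastin during growth are known to become quiet. The adult ventricle lives mainly on fatty acids, keeps its force and rhythm through sarcomere proteins, calcium pumps and potassium channels, and runs a circadian clock whose genes change over the day. The question was which transcripts differed between these ages before any ischaemia.

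Heart muscle markers were present: 14 of 14 cardiomyocyte markers were detected, and their mean log2 signal lay between 14.47 and 14.68 in 32-week hearts and between 14.45 and 14.63 in 8-week hearts. Of 11 atrial markers 9 were detected as well, with a mean log2 signal between 7.42 and 9.14 in 32-week hearts and between 7.91 and 9.23 in 8-week hearts, while Sln and Bmp10 were not detected on enough arrays to be tested. None of these 9 passed by limma, and 0 were at an unadjusted p under 0.05. RNA integrity (RIN) was 8.42 ± 0.264 in 32-week hearts and 8.52 ± 0.299 in 8-week hearts (SD, n = 6 each, exact permutation p = 0.615, two-sided). The arrays detected 13932 to 14988 probes in 32-week hearts and 14046 to 14321 in 8-week hearts (exact permutation p = 0.247), and the median background signal averaged 130.8 in 32-week hearts and 129.5 in 8-week hearts (exact permutation p = 0.636). After adjustment over these 3 tests each p was 0.636.

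Of 9811 genes tested with limma, 155 (1.58%) differed at a Benjamini-Hochberg adjusted p under 0.05. Of these, 78 (0.795%) were higher at 32 weeks and 77 (0.785%) were lower. With median centring of the arrays in place of quantile normalization the split was 91 higher and 47 lower. The median log2 fold change was 0.616 in size over the 155 genes and 0.103 over all genes, and 25 of the 155 differed more than 2-fold. At an unadjusted p under 0.05 there were 1135 genes. The 6 values of one age lay wholly outside the 6 of the other in 191 genes (1.95%), with 79 (0.805%) higher at 32 weeks and 112 (1.14%) lower. The count was 94 to 208 when single hearts were left out, with 94 without 8-week replicate 2 and 102 without 32-week replicate 5; it was 408 with array weights and 233 on the authors' own values. Of the 155 genes, 92 belonged to none of the 67 gene lists described below, and 27 of 43 pathway lists held at least 1 of them.

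**Figure D1:**
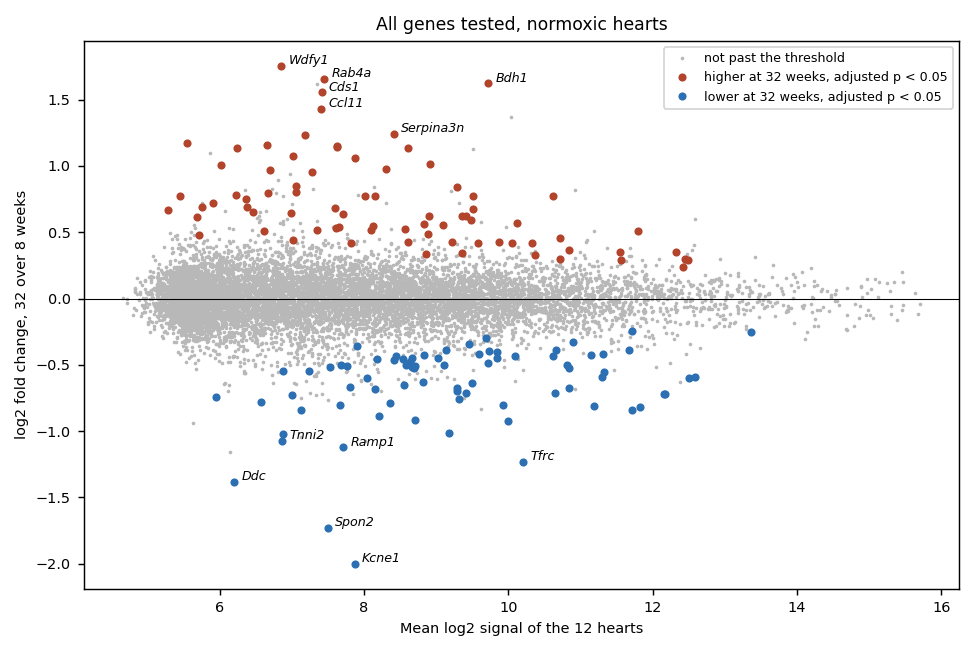
Each point is 1 of 9811 genes, with the mean log2 signal of the 12 hearts on the x axis and the log2 fold change of 32 over 8 weeks on the y axis. Red points mark the 78 genes higher at 32 weeks and blue points the 77 genes lower at 32 weeks at an adjusted p under 0.05 (limma); they occur over the whole range of signal, and Kcne1 is the lowest point.

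Among these 12 hearts, 1 of each age stood apart, and both touch results given below. On principal component 1, with 20.2% of the variance, replicates 1 to 5 of the 32-week hearts lay between 6.49 and 16.8, 32-week replicate 6 lay at -2.88, and all 8-week hearts lay between -10.9 and -4.94. On the next component (13.3%), 8-week replicate 6 lay at 23.1 and the other 11 hearts between -9.14 and 6.58. Their RIN was 8.3 for the 32-week heart and 8 for the 8-week heart, and they detected 14393 and 14083 probes. The other 32-week hearts had a RIN of 8.2 to 8.9 and the other 8-week hearts one of 8.4 to 8.8. The 8-week heart thus had the lowest RIN of the normoxic hearts, and also their lowest array weight, 0.68. The part of RNA quality in its position was not tested. In several clock genes these hearts lay at the level of the other age, as set out below. Of the 155 genes, 32-week replicate 6 was nearer to the mean of 8-week replicates 1 to 5 than to that of 32-week replicates 1 to 5 in 47. In 29 of the 155 genes 8-week replicate 6 was nearer to the 32-week hearts, and in 10 both hearts were. Without both hearts 233 genes passed, 123 higher and 110 lower, and 128 of the 155 were among them. In these 233 genes, which were called without using either heart, 32-week replicate 6 was nearer to its own age in 105 and to the other in 128, and 8-week replicate 6 nearer to its own in 142 and to the other in 91; both were nearer to the other age in 54 and both to their own in 68. Both hearts thus go in part against their age labels, and whether the labels were exchanged was not tested. Of the genes described below, Ccn2, Edn1, Etfdh, Uqcrq, Vcam1, C1s1, Efna1, Amy1, Mgst1 and Gsto1 did not pass without both hearts. The collagen chains that passed were then 6, all lower; elastic and other matrix proteins were 5, all lower, and oxidising enzymes were 6, all higher. Of the antioxidant and glutathione genes 5 were higher and 1 lower, of the senescence list 3 were lower, and of the immediate early genes 3 were lower.

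The largest rises included single genes of endosomes, ketone and lipid metabolism, and inflammation. Of 55 genes of endocytosis and endosomal sorting 1 was higher and 1 lower (3.64%, against 1.58% of all genes), with a list median of 0.02. Of 43 Rab GTPases 1 passed (2.33%), and of 41 genes of phospholipid synthesis 1 passed (2.44%), both higher. Wdfy1 encodes a protein that binds the lipid phosphatidylinositol 3-phosphate on early endosomes. Its log2 signal lay between 7.43 and 7.98 (median 7.78) in 32-week hearts and between 5.76 and 6.18 (median 6.00) in 8-week hearts. All 6 older hearts were above all 6 younger ones, a 3.38-fold difference (log2 fold change 1.76 ± 0.28 (SE, with 6 hearts in each group), adjusted p = 0.000115, limma). Rab4a, the GTPase that sends internalised receptors quickly back to the cell surface, lay between 8.16 and 8.40 (median 8.27) in 32-week hearts and between 6.32 and 6.88 (median 6.68) in 8-week hearts. Again the ages did not overlap, and no heart stood apart from its group (3.15-fold, log2 fold change 1.66 ± 0.18, adjusted p = 2.88e-08). Cds1, an enzyme that activates phosphatidic acid for the synthesis of phosphatidylinositol and cardiolipin precursors, lay between 7.93 and 8.36 (median 8.23) in 32-week hearts and between 6.24 and 7.27 (median 6.58) in 8-week hearts. It was 2.94-fold higher at 32 weeks with the smallest p of the 155 genes (log2 fold change 1.55 ± 0.15, adjusted p = 1.58e-09).

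Bdh1, the mitochondrial dehydrogenase that interconverts 3-hydroxybutyrate and acetoacetate, lay between 10.23 and 10.72 (median 10.58) in 32-week hearts and between 8.41 and 9.50 (median 8.89) in 8-week hearts. The ages were 3.08-fold apart without overlap (log2 fold change 1.62 ± 0.23, adjusted p = 1.07e-05), but a much dimmer probe of the same gene, detected in 2 hearts of 32 weeks and 3 of 8 weeks, gave -0.14. Abat, which breaks down the transmitter GABA, lay between 7.02 and 8.57 (median 7.79) in 32-week hearts and between 6.23 and 7.09 (median 6.53) in 8-week hearts, where 1 older heart fell within the younger range (2.35-fold, log2 fold change 1.24 ± 0.31, adjusted p = 0.0216). Myot, the Z-disc protein myotilin, lay between 6.53 and 7.76 (median 7.29) in 32-week hearts and between 5.63 and 6.53 (median 6.07) in 8-week hearts, with the lowest older heart, replicate 6, close to the highest younger one (2.23-fold, log2 fold change 1.16 ± 0.29, adjusted p = 0.0263).

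The inflammatory genes among the leading rises were Ccl11, Il33 and Serpina3n. Ccl11, the chemokine that attracts eosinophils, lay between 7.35 and 8.56 (median 8.21) in 32-week hearts and between 6.47 and 6.84 (median 6.71) in 8-week hearts. It was 2.70-fold higher at 32 weeks, with no overlap (log2 fold change 1.43 ± 0.22, adjusted p = 7.33e-05). Il33, an alarm cytokine released from nuclei of stromal and endothelial cells, lay between 7.56 and 9.29 (median 8.02) in 32-week hearts and between 6.88 and 7.26 (median 7.02) in 8-week hearts (2.21-fold, log2 fold change 1.14 ± 0.20, adjusted p = 0.000562). Serpina3n, a secreted inhibitor of serine proteases that belongs to the acute phase response, lay between 8.50 and 10.21 (median 8.76) in 32-week hearts and between 7.48 and 8.07 (median 7.81) in 8-week hearts (2.36-fold, log2 fold change 1.24 ± 0.30, adjusted p = 0.0161). In both genes every older heart was above every younger one, and the older hearts were spread more widely than the younger ones.

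**Figure D2:**
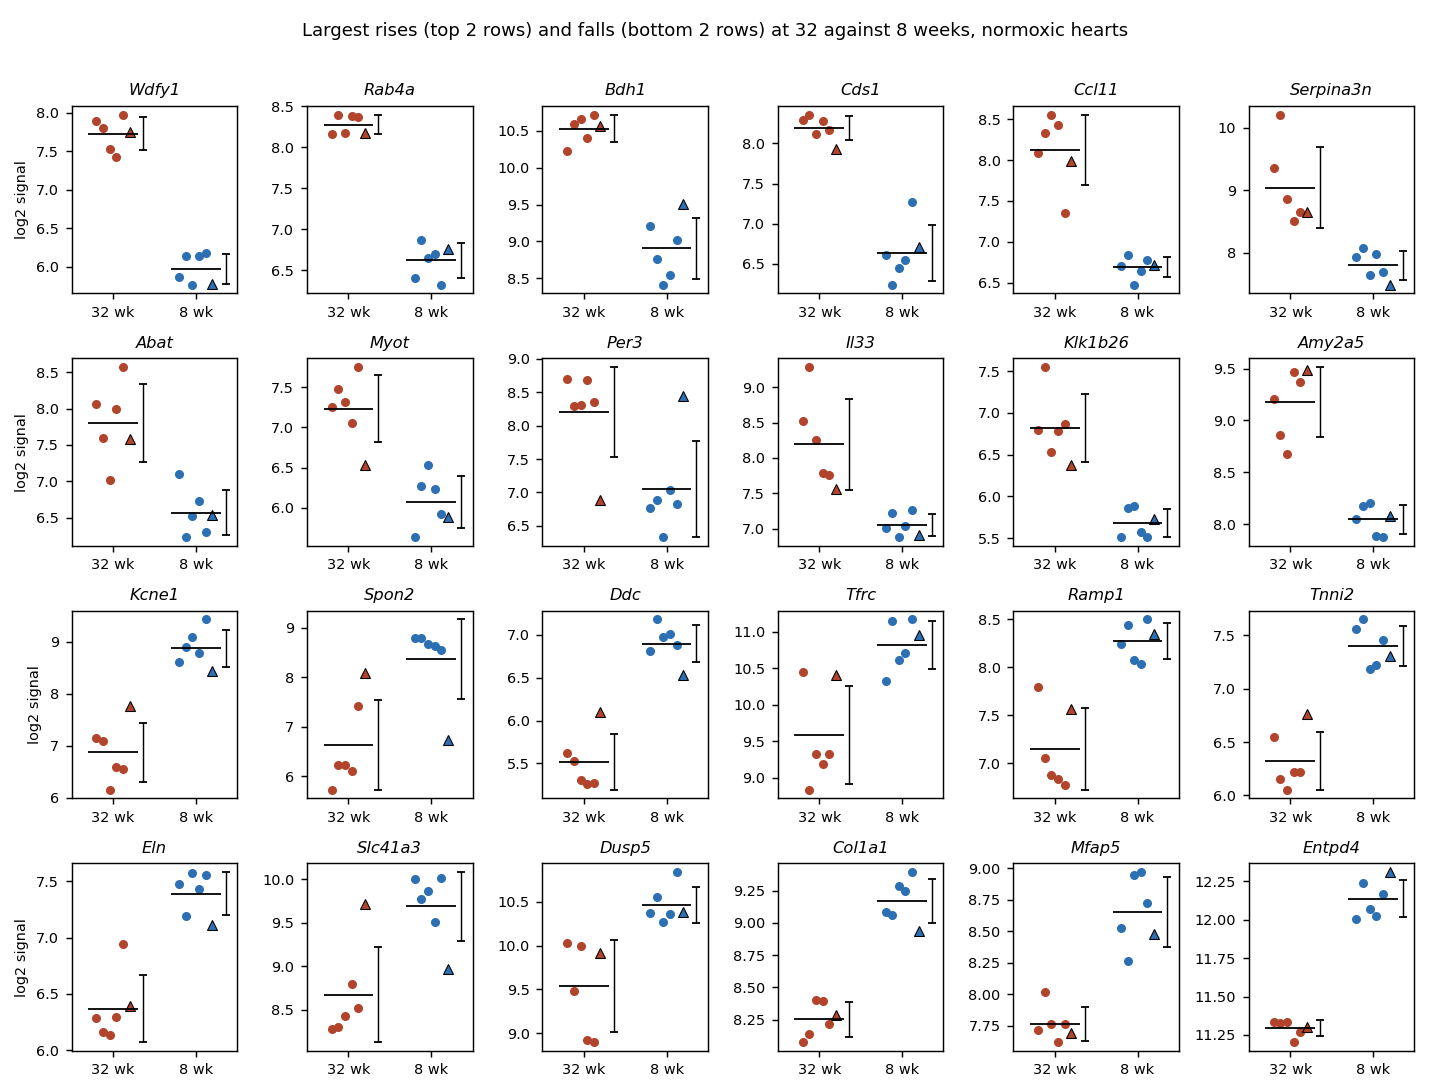
Log2 signal of the 12 genes with the largest rises (upper 2 rows) and the 12 with the largest falls (lower 2 rows) among genes past the threshold, with 32-week hearts (red) left of 8-week hearts (blue). Each point is 1 heart, triangles mark replicate 6 of each age, the line is the mean of 6 hearts and the bar beside it is ± 1 SD. In Per3, Spon2 and Slc41a3 both triangles lie on the side of the other age.

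The largest fall was in Kcne1, the accessory subunit that slows the potassium current repolarising the heart muscle cell. Kcne1 lay between 6.15 and 7.75 (median 6.83) in 32-week hearts and between 8.43 and 9.43 (median 8.84) in 8-week hearts. Every older heart was below every younger one, and the mean was 4.00-fold lower (log2 fold change -2.00 ± 0.28 (SE, with 6 hearts in each group), adjusted p = 9.13e-06). Its second, dimmer probe was detected in no heart of 32 weeks and in 4 of 8 weeks. It gave -0.50 (adjusted p over all probes = 0.0615, limma). Of the other 25 potassium channel genes measured, none passed by limma, with 1 higher and 4 lower at an unadjusted p under 0.05, Kcne1 counted. Ddc, which makes dopamine and serotonin from their amino acid precursors, lay between 5.26 and 6.10 (median 5.42) in 32-week hearts and between 6.54 and 7.18 (median 6.93) in 8-week hearts. Its probe was detected in 1 of 6 older hearts and in all younger ones, the ages did not overlap (2.61-fold lower, log2 fold change -1.38 ± 0.16, adjusted p = 2.90e-07), and the second probe gave -1.18. The other 4 measured markers of sympathetic neurons and chromaffin cells did not pass by limma (1 higher and 2 lower at an unadjusted p under 0.05, Ddc counted), and Th, Slc6a2, Slc18a1, Npy, Chga and Chgb were not detected on enough arrays to be tested.

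Tfrc, the receptor that brings transferrin-bound iron into cells, lay between 8.84 and 10.45 (median 9.33) in 32-week hearts and between 10.32 and 11.17 (median 10.83) in 8-week hearts. The older hearts were split, with replicates 1 and 6 at 10.45 and 10.41 and the other 4 between 8.84 and 9.33 (2.35-fold lower, log2 fold change -1.23 ± 0.28, adjusted p = 0.0104). It was the only 1 of 34 genes of iron and haem handling that passed (2.94%, against 1.58% of all genes). Ramp1, which turns the calcitonin receptor-like receptor into a receptor for the vasodilator CGRP, lay between 6.77 and 7.80 (median 6.97) in 32-week hearts and between 8.03 and 8.50 (median 8.30) in 8-week hearts (2.18-fold lower, log2 fold change -1.12 ± 0.22, adjusted p = 0.00258). Tnni2, a troponin subunit typical of fast skeletal muscle, lay between 6.05 and 6.76 (median 6.22) in 32-week hearts and between 7.19 and 7.65 (median 7.38) in 8-week hearts (2.10-fold lower, log2 fold change -1.07 ± 0.18, adjusted p = 0.00023). The other 8 fast skeletal muscle genes measured were below 0 as well without passing by limma (median of the 9 genes -0.21; 3 of 9 at an unadjusted p under 0.05, Tnni2 counted), and Tnnt3, Myh1, Myh2, Myh4 and Actn3 were not detected on enough arrays to be tested.

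Entpd4, a nucleoside diphosphatase of the Golgi, had the tightest groups of the leading falls: 11.20 to 11.33 in 32-week hearts and 12.01 to 12.31 in 8-week hearts. The difference was 1.79-fold (log2 fold change -0.84 ± 0.11, adjusted p = 1.60e-06). Dusp5, a nuclear phosphatase that switches off ERK kinases, lay between 8.90 and 10.03 (median 9.70) in 32-week hearts and between 10.27 and 10.84 (median 10.38) in 8-week hearts (1.89-fold lower, log2 fold change -0.92 ± 0.21, adjusted p = 0.0119). Slc41a3, a magnesium transporter, lay at 8.28 to 8.79 in 32-week replicates 1 to 5 and at 9.72 in replicate 6, and at 9.51 to 10.02 in 8-week replicates 1 to 5 and at 8.97 in replicate 6 (2.02-fold lower, log2 fold change -1.02 ± 0.27, adjusted p = 0.0324). Spon2, a secreted protein of the spondin family, showed the same exchange: 5.72 to 7.42 in 32-week replicates 1 to 5 against 8.08 in replicate 6, and 8.55 to 8.80 in 8-week replicates 1 to 5 against 6.72 in replicate 6 (3.31-fold lower, log2 fold change -1.73 ± 0.47, adjusted p = 0.0428). Without both hearts the log2 fold change was -1.37 for Slc41a3 and -2.35 for Spon2.

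Of 16 collagen chains measured, 5 passed and all 5 were lower at 32 weeks (31.2%, against 0.785% of all genes); 15 of 16 were below 0, with a median log2 fold change of -0.38 against 0.00 over all genes tested. In bulk tissue, fewer cells of a type and less RNA per cell cannot be told apart. Col1a1, a chain of the fibre-forming type I collagen, lay between 8.07 and 8.41 (median 8.25) in 32-week hearts and between 8.94 and 9.40 (median 9.17) in 8-week hearts (1.89-fold lower, log2 fold change -0.92 ± 0.21, adjusted p = 0.0104). Col6a1, a chain of the beaded type VI collagen, lay between 10.02 and 10.55 (median 10.25) in 32-week hearts and between 10.82 and 11.20 (median 11.01) in 8-week hearts (1.64-fold lower, log2 fold change -0.71 ± 0.12, adjusted p = 0.00023), with -0.65 from another probe. The basement membrane chains Col4a1 and Col4a2 lay at 11.05 to 11.69 in 32-week hearts and 11.86 to 12.51 in 8-week hearts (log2 fold change -0.82 ± 0.16, adjusted p = 0.00218) and at 12.01 to 12.58 in 32-week hearts and 12.72 to 13.10 in 8-week hearts (log2 fold change -0.59 ± 0.14, adjusted p = 0.0161). In all 4 of these genes no older heart reached the level of any younger heart, the 2 that stand apart in clock genes included. The fifth was Col15a1, a chain found next to basement membranes (log2 fold change -0.76, adjusted p = 0.0188).

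Col4a1 (minus strand) and Col4a2 (plus strand) lie head to head, and in RefSeq (GRCm38.p6) their annotated starts overlap by 22 bases at chr8:11312805-11312826. The shared stretch is shown because these neighbouring genes both fell; it reads, on the plus strand:
Shared start of Col4a1 and Col4a2: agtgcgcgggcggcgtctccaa

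Of 41 elastic fibre and other matrix proteins 5 were lower (12.2%, against 0.785% of all genes) and 0 higher (median -0.13). Eln, which encodes elastin, lay between 6.13 and 6.94 (median 6.29) in 32-week hearts and between 7.11 and 7.58 (median 7.45) in 8-week hearts (2.03-fold lower, log2 fold change -1.02 ± 0.24, adjusted p = 0.0137), without overlap. Mfap5, a glycoprotein of the microfibrils that scaffold elastin, lay between 7.62 and 8.02 (median 7.74) in 32-week hearts and between 8.26 and 8.97 (median 8.62) in 8-week hearts (1.85-fold lower, log2 fold change -0.89 ± 0.22, adjusted p = 0.0228). Fbln1, fibulin-1, and Vtn, vitronectin, were 1.33-fold and 1.44-fold lower (adjusted p = 0.0291 and 0.00908), and the last of the 5 was Spon2, above. Of 24 matrix proteases and inhibitors 3 were lower (12.5%) and 0 higher, and 6 were lower and 1 higher at an unadjusted p under 0.05. Mmp2, the gelatinase of stromal cells, lay between 10.37 and 10.73 (median 10.59) in 32-week hearts and between 10.94 and 11.16 (median 11.08) in 8-week hearts (1.41-fold lower, log2 fold change -0.50 ± 0.11, adjusted p = 0.00837). The collagenase Mmp13 was 1.79-fold lower (adjusted p = 0.0265), with 32-week replicate 6 at 7.54 and the other older hearts at 6.45 to 6.67. Its second probe, detected in no heart of 32 weeks and in 2 of 8 weeks, gave -0.24. Adamts12 was 1.67-fold lower (adjusted p = 0.0265), but its second probe gave 0.12. With single hearts left out the 5 matrix proteins became 2 to 5, with 2 without 32-week replicate 4 and 3 without 32-week replicate 3 or 8-week replicate 3, 4 or 5, and the 3 proteases 1 to 3, with 1 without 32-week replicate 4 or 8-week replicate 2.

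Of the enzymes that modify and cross-link collagen 0 of 21 passed by limma, with 1 higher and 4 lower at an unadjusted p under 0.05, and the smallest p belonged to the prolyl hydroxylase P4ha1 (log2 fold change 0.34, adjusted p = 0.104). Ccn2, a matricellular target of TGF-beta, was 1.51-fold lower (adjusted p = 0.0286, limma). It was the only 1 of 31 TGF-beta and BMP genes past the threshold (3.23%, against 1.58% of all genes). Igfbp3, which binds insulin-like growth factors, was 1.72-fold lower without overlap (adjusted p = 0.00954). Of 11 fibroblast markers measured, 2 were lower (18.2%, against 0.785% of all genes) and 0 higher. The 2 were Col1a1 and Fbln1, both of which are also on the matrix lists. Of the 11 markers 4 were above 0, and at an unadjusted p under 0.05 1 was higher and 2 were lower. With no background correction, with offset 50, with array weights and on the authors' values 1 fibroblast marker passed higher and 2 lower. The markers thus did not all move one way. The mean log2 signal of those 11 markers lay between 9.11 and 9.30 in 32-week hearts and between 9.19 and 9.40 in 8-week hearts, and its part in the matrix falls was not tested. The count of 5 collagen chains was 5 to 7 under 12 other settings, and 3 to 6 when single hearts were left out, with 3 without 32-week replicate 2.

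**Figure D3:**
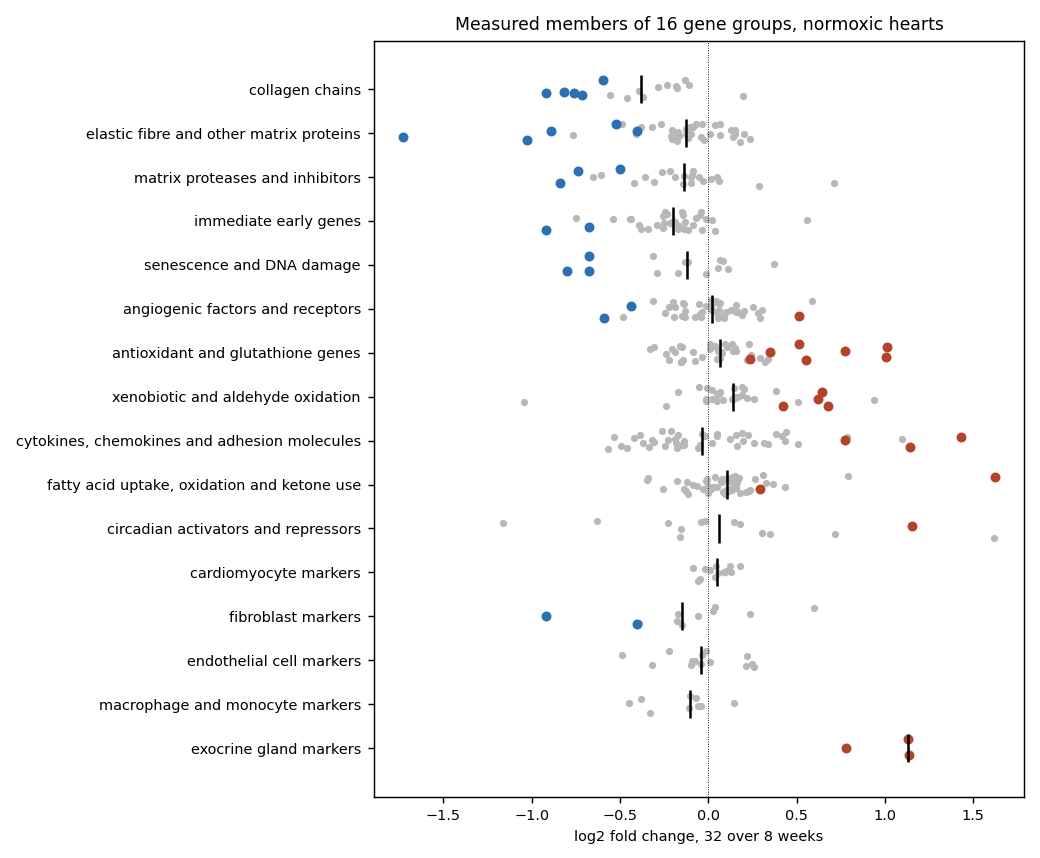
Log2 fold change of 32 over 8 weeks (x axis) for every measured member of 16 gene groups, 1 point per gene; coloured points passed the threshold (red higher, blue lower), grey points did not, and the black bar is the median of the group. Collagen chains lie to the left of 0 with a median of -0.38, while cardiomyocyte markers lie around 0 with none past the threshold.

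Of 44 antioxidant and glutathione genes, 7 were higher (15.9%, against 0.795% of all genes) and 0 lower, each of the 7 a glutathione transferase, which conjugate glutathione to reactive compounds, and the median of the list was 0.07. Gsta2 lay between 6.18 and 6.74 (median 6.62) in 32-week hearts and between 5.26 and 5.93 (median 5.47) in 8-week hearts, without overlap (2.01-fold, log2 fold change 1.00 ± 0.18, adjusted p = 0.000472). Its probe was detected in all older hearts and in 2 of 6 younger ones. A second Gsta2 probe, detected in 5 older hearts and 0 younger ones, gave 0.52. Gsta1 was detected in 4 older hearts and in no younger one, so only a bound can be given: it was at least 1.10-fold higher (adjusted p = 0.0116; mean log2 signal 5.84 at 32 weeks and 5.07 at 8 weeks). Gstm2, the brightest of the 7, lay between 12.32 and 12.69 (median 12.47) in 32-week hearts and between 11.98 and 12.26 (median 12.18) in 8-week hearts (1.27-fold, log2 fold change 0.35 ± 0.08, adjusted p = 0.00797), without overlap. Gstt3 was 1.43-fold higher (adjusted p = 0.0116). Gsta3, Mgst1 and Gsto1, which were outside the naming rule and are named as the remaining members of this count, had log2 fold changes of 1.01, 0.56 and 0.24 (adjusted p = 0.0267, 0.0295 and 0.0474). The Gsta genes are close copies of each other, so which of them a probe measured is uncertain. The Gsta calls may therefore not be separate, although the 15.9% counts each of them. Gsta1 passed the detection filter only through arrays other than those of the 8-week normoxic hearts.

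These enzymes are classic targets of the factor Nrf2, which binds antioxidant response elements in promoters. The core letters TGACNNNGC were searched on both strands in the 250 bases before each annotated start (RefSeq, GRCm38.p6). They occur in 10.2% of all 32851 windows. Counted by gene with a match in any of its windows, they occur in 11.5% of 27025 genes and in 18.3% of the 115 of the 155 genes that have a window, and, among the 7 transferases, in windows of Gsta3 and Mgst1. Those windows are shown because the genes moved together, with the match in capitals. A match is a description of letters and not of binding. The 27025 genes include genes not tested here, and a gene with more windows has more chances of a match. The shares by gene are therefore not set against a like group.
Gsta3, chr1:21240335-21240584, plus strand, match beginning 121 bases before the start: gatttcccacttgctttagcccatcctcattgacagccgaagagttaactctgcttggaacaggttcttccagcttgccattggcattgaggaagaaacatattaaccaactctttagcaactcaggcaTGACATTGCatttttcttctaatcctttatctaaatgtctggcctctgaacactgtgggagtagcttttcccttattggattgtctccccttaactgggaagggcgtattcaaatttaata
Mgst1, chr6:138140277-138140526, plus strand, match beginning 56 bases before the start, on the opposite strand: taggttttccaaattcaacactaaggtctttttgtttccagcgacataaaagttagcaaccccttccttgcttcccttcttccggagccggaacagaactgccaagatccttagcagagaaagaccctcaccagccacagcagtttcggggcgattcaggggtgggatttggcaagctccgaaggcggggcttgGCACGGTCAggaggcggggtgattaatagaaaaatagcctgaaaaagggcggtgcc

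Of 32 enzymes that oxidise drugs, amines and aldehydes 4 were higher (12.5%, against 0.795% of all genes) and 0 lower, with a list median of 0.14. Maob, the mitochondrial monoamine oxidase, had narrow groups without overlap, 10.50 to 10.62 in 32-week hearts and 9.88 to 10.25 in 8-week hearts (1.34-fold, log2 fold change 0.42 ± 0.08, adjusted p = 0.00257). Aox1, an aldehyde oxidase that makes hydrogen peroxide, lay between 9.29 and 10.41 (median 9.89) in 32-week hearts and between 8.98 and 9.43 (median 9.15) in 8-week hearts (1.60-fold, log2 fold change 0.68 ± 0.14, adjusted p = 0.00415), and its second probe gave 0.10. Fmo5, a flavin monooxygenase, and Xdh, the xanthine oxidoreductase of purine breakdown, were 1.56-fold and 1.54-fold higher (adjusted p = 0.0193 and 0.0467). In Aox1, Fmo5 and Xdh the lowest older heart, replicate 6, lay within the range of the younger hearts. With single hearts left out the 7 antioxidant and glutathione genes became 4 to 9 members of that list, with 4 without 32-week replicate 3 or without 8-week replicate 2, 3 or 5; the 4 oxidising enzymes became 2 to 5, with 2 without 32-week replicate 3 or 8-week replicate 1 or 2. With median centring 4 members of the antioxidant and glutathione list passed.

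Of 47 cytokines, chemokines and adhesion molecules, 3 were higher (6.38%, against 0.795% of all genes) and 0 lower, 8 were higher and 3 lower at an unadjusted p under 0.05, and the list median was -0.04. Beside Ccl11 and Il33 the third was Vcam1, the endothelial receptor for leukocytes. Vcam1 lay between 10.68 and 11.65 (median 10.95) in 32-week hearts and between 9.89 and 10.54 (median 10.21) in 8-week hearts, without overlap (1.71-fold, log2 fold change 0.77 ± 0.20, adjusted p = 0.0266), and its second probe gave 0.92. In the complement list, C1s1, a protease of the classical pathway, and Cd59a, which blocks the membrane attack complex, were 1.68-fold and 1.22-fold higher (adjusted p = 0.0333 and 0.0273), while the endothelial receptor Cd93 was 1.46-fold lower (adjusted p = 0.0447). These 3 of 23 complement and coagulation genes became 0 without replicate 3 of either age, and 1 without 32-week replicate 1, 2, 4 or 5 or 8-week replicate 1 or 2. Macrophage and monocyte markers gave 0 of 9 past the threshold by limma and 0 at an unadjusted p under 0.05, and their mean log2 signal lay between 7.42 and 8.34 in 32-week hearts and between 6.98 and 8.29 in 8-week hearts. Itgam, Cd163 and Fcgr1 were not detected on enough arrays to be tested. Markers of mast cells and of eosinophils, which Ccl11 draws, gave 0 of 5 by limma and 0 at an unadjusted p under 0.05. The other 6, Cpa3, Fcer1a, Ms4a2, Siglecf, Epx and Ccr3, were not detected on enough arrays to be tested. A change in eosinophils could therefore have been missed.

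Of 14 genes of senescence and DNA damage 3 passed, and all 3 were lower (21.4%, against 0.785% of all genes); at an unadjusted p under 0.05 4 were lower and 1 higher. Cdkn1a, the cell cycle inhibitor p21, lay between 8.99 and 10.07 (median 9.50) in 32-week hearts and between 9.79 and 10.63 (median 10.36) in 8-week hearts, where both replicate 6 hearts lay nearer to the other age (1.74-fold lower, log2 fold change -0.80 ± 0.20, adjusted p = 0.0265; second probe -0.80). Plk2, a kinase induced by cell stress, lay between 8.79 and 9.12 (median 8.97) in 32-week hearts and between 9.42 and 9.92 (median 9.54) in 8-week hearts, without overlap (1.60-fold lower, log2 fold change -0.68 ± 0.13, adjusted p = 0.00216). Gadd45g, a DNA damage and stress sensor, lay between 10.07 and 10.90 (median 10.51) in 32-week hearts and between 10.93 and 11.36 (median 11.24) in 8-week hearts, also without overlap (1.60-fold lower, log2 fold change -0.68 ± 0.17, adjusted p = 0.0196). These are genes of the acute response as well as of senescence: Gadd45g also stands among 35 immediate early genes, of which 2, Gadd45g and Dusp5, were lower (5.71%), 0 were higher, and 32 were below 0 (median -0.20). Rcan1, the feedback inhibitor of calcineurin, lay between 11.59 and 12.25 (median 11.74) in 32-week hearts and between 12.36 and 12.77 (median 12.54) in 8-week hearts (1.64-fold lower, log2 fold change -0.72 ± 0.16, adjusted p = 0.0116). It was the only 1 of 25 genes of hypertrophy and the fetal programme that passed (4%, against 1.58% of all genes). Leaving out single hearts gave 1 to 3 of the senescence list, with 1 without 32-week replicate 4 or 5, and 0 to 2 immediate early genes, with 0 without 32-week replicate 4 or 5 and 1 without 32-week replicate 1 or 8-week replicate 1.

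Vessel genes were mixed. Vegfa, the main growth factor of endothelial cells, lay between 10.75 and 11.33 (median 10.95) in 32-week hearts and between 11.29 and 11.87 (median 11.61) in 8-week hearts (1.51-fold lower, log2 fold change -0.59 ± 0.13, adjusted p = 0.00837). Efna1, an ephrin ligand of endothelium, was 1.35-fold lower without overlap (adjusted p = 0.0188), and Pdgfd, a platelet-derived growth factor, was 1.43-fold higher without overlap (adjusted p = 0.0169). They were the 3 of 47 angiogenic factors and receptors that passed (6.38%, against 1.58% of all genes), and 1 passed without 32-week replicate 3 or 8-week replicate 6. Edn1, which encodes the vasoconstrictor endothelin-1, was 1.55-fold lower (adjusted p = 0.044), and failed the threshold in 6 of 12 other settings. P2ry1, a receptor for ADP, was 1.48-fold higher (adjusted p = 0.0286). Endothelial markers gave 0 of 14 by limma (1 higher and 2 lower at an unadjusted p under 0.05).

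In energy metabolism the calls were single genes. Of 53 genes of fatty acid and ketone use, 39 were above 0 (median 0.11), against 4939 of 9811 over all genes. The 2 that passed (3.77%, against 1.58% of all genes) were Bdh1 and Etfdh. Etfdh, which hands electrons from fatty acid oxidation to ubiquinone, lay at 12.49 to 12.77 in 32-week hearts and 12.07 to 12.45 in 8-week hearts, a 1.22-fold rise (adjusted p = 0.0329) that did not pass in 5 of 12 other settings. Of 39 subunits of complexes II to V, 2 were lower (5.13%, against 0.785% of all genes) and 0 higher. Both were subunits of complex III, Uqcrq (1.46-fold, adjusted p = 0.0276, limma) and Cyc1 (1.19-fold, adjusted p = 0.0467). Cyc1 did not pass in 7 of 12 other settings. Of 31 amino acid and amine genes 3 passed (9.68%, against 1.58% of all genes). They were Abat and Ddc described above and Sat1, the enzyme that marks polyamines for breakdown (1.34-fold lower, adjusted p = 0.0434, limma). Gaa, the lysosomal enzyme that digests glycogen, was 1.23-fold higher (adjusted p = 0.0267). In the list of calcium handling 1 of 26 passed (3.85%, against 1.58% of all genes), Camk2b, a subunit of the kinase that phosphorylates calcium channels and pumps. Camk2b lay between 7.74 and 8.90 (median 8.45) in 32-week hearts and between 7.08 and 7.79 (median 7.31) in 8-week hearts (2.08-fold, log2 fold change 1.06 ± 0.18, adjusted p = 0.000266). Its highest younger and lowest older hearts, 7.79 and 7.74, were both replicate 6.

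Of 12 markers of exocrine glands 3 were detected on enough arrays to be tested, and these 3 were higher, against 0.795% of all genes. Amy2a5, an amylase of the pancreas, lay between 8.67 and 9.48 (median 9.29) in 32-week hearts and between 7.87 and 8.21 (median 8.06) in 8-week hearts, without overlap (2.19-fold, log2 fold change 1.13 ± 0.16, adjusted p = 1.43e-05). Klk1b26, a serine protease of the tissue kallikreins, lay between 6.37 and 7.55 (median 6.78) in 32-week hearts and between 5.51 and 5.88 (median 5.65) in 8-week hearts (2.20-fold, log2 fold change 1.14 ± 0.22, adjusted p = 0.00191). It was detected in 3 of 6 younger hearts, and its second probe in 6 older hearts and no younger one. Amy1, the salivary amylase, was 1.71-fold higher (adjusted p = 0.0393, limma). It did not pass in 4 of 12 other settings, nor in 7 of 12 fits with a single heart left out. The amylases are close copies of each other, as are the kallikreins, so which gene was measured is uncertain. The amylase calls may therefore not be separate. The 9 other genes of the list, among them the pancreatic enzymes Cpa1, Cpb1, Cela1, Prss2 and Try4, were not detected on enough arrays to be tested.

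Of 14 clock activators and repressors 1 passed (7.14%, against 1.58% of all genes), and of 9 clock output factors 0 passed by limma, with 3 higher and 0 lower at an unadjusted p under 0.05. In 13 of these 23 genes replicate 6 of each age lay nearer to the other age, and in 5 both lay nearer to their own. In the clock, Clock and Arntl switch on genes through the E-box CACGTG, among them the period and cryptochrome genes that repress them in turn and the factors Dbp and Tef, which bind the D-box TTATGTAA. Per3 lay at 8.30 to 8.70 in 32-week replicates 1 to 5 and at 6.88 in replicate 6, against 6.34 to 7.03 in 8-week replicates 1 to 5 and 8.45 in replicate 6 (2.23-fold, log2 fold change 1.15 ± 0.31 (SE, with 6 hearts in each group), adjusted p = 0.0428). In each age, then, 5 hearts lay close together and 1 lay at the level of the other age. A second probe gave 0.94 (adjusted p = 0.0596), and the first did not pass in 5 of 12 other settings. Tef lay at 11.37 to 11.76 and at 10.29 in these 32-week hearts and at 10.02 to 10.57 and 11.92 in the 8-week hearts (log2 fold change 0.82 ± 0.27, adjusted p = 0.124), in the same order of replicates 1 to 5 and replicate 6, although a dimmer Tef probe gave -0.06.

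Both hearts lay nearer to the other age also in Per2, Dbp, Cry2, Usp2, Arntl, Clock, Per1, Ciart, Csnk1e, Fbxl21 and Leo1; these genes are named after their values were seen. Per2, a repressor like Per3, lay at 8.15 to 8.94 in 32-week replicates 1 to 5 and 6.37 in replicate 6, against 5.67 to 6.45 in 8-week replicates 1 to 5 and 8.83 in replicate 6 (log2 fold change 1.62, adjusted p = 0.0908). Dbp lay at 10.58 to 11.53 in 32-week replicates 1 to 5 and 9.17 in replicate 6, against 7.57 to 9.50 in 8-week replicates 1 to 5 and 11.70 in replicate 6 (1.37, 0.216). Cry2, a cryptochrome, and Usp2, a deubiquitinase with a strong daily rhythm, had log2 fold changes of 0.72 and 0.46 (adjusted p = 0.0517 and 0.298). Arntl, the activator, ran the opposite way, with 4.98 to 6.09 in 32-week replicates 1 to 5 and 7.02 in replicate 6, against 6.20 to 7.54 in 8-week replicates 1 to 5 and 5.64 in replicate 6 (-1.16, 0.189). In Nr1d1, a repressor of Arntl, and in Csnk1d, Bhlhe40, Klf9 and Nampt both hearts lay nearer to their own age (for Nr1d1 -0.63, 0.0525). Without both hearts the log2 fold changes were 1.70 for Per3, 2.44 for Per2, 1.30 for Tef and -1.67 for Arntl, but these hearts were singled out after such values were seen, so the larger values support nothing. At 16 weeks the hearts fell at both levels too, with Per2 at 6.74, 8.72, 6.21, 8.72, 9.03 and 7.36 in replicates 1 to 6. The hour at which each heart was taken is not given in the sources used here. Of the 24 genes with the largest changes, Per3, Spon2 and Slc41a3 had both replicate 6 hearts nearer to the other age; the other 21 did not, Wdfy1, Rab4a, Cds1, Kcne1, Ddc and Col1a1 among them. Over the 155 genes the remaining 7 with this exchange were Aebp1, Gstt3, Mttp, Nfe2l1, Vtn, Cd93 and Cdkn1a.

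Windows of 250 bases before the start are shown for Per3 and Tef, with the motif of the clock in capitals. They are the searched clock genes that held a motif. The windows of Dbp, Cry2, Usp2, Nr1d1 and both starts of Arntl held 0 E-boxes and 0 D-boxes. For Per2 no window was available. The D-box TTATGTAA, searched on both strands, occurs in 0.819% of all 32851 windows, and by gene in 0.977% of 27025 genes. Of the 115 genes of the 155 that have a window 1 has it, Per3, which holds it at 205 and 158 bases before the start. The E-box CACGTG occurs in 6.02% of all windows, in 6.86% of all genes and in 9.57% of those 115 genes, and both annotated starts of Tef have 1. For both motifs all genes include genes not tested here, so the shares are not set against a like group.
Per3, chr4:151044666-151044915, minus strand: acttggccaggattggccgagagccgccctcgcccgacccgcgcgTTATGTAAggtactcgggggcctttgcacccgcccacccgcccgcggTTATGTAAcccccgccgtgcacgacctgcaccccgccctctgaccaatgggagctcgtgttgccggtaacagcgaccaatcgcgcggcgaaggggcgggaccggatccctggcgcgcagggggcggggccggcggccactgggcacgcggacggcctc
Tef, chr15:81811164-81811413, plus strand: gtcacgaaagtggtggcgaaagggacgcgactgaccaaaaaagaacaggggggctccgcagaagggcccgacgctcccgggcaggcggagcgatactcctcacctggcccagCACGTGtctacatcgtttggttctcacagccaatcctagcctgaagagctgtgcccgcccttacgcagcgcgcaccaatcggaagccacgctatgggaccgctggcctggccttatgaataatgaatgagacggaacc

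**Figure D4:**
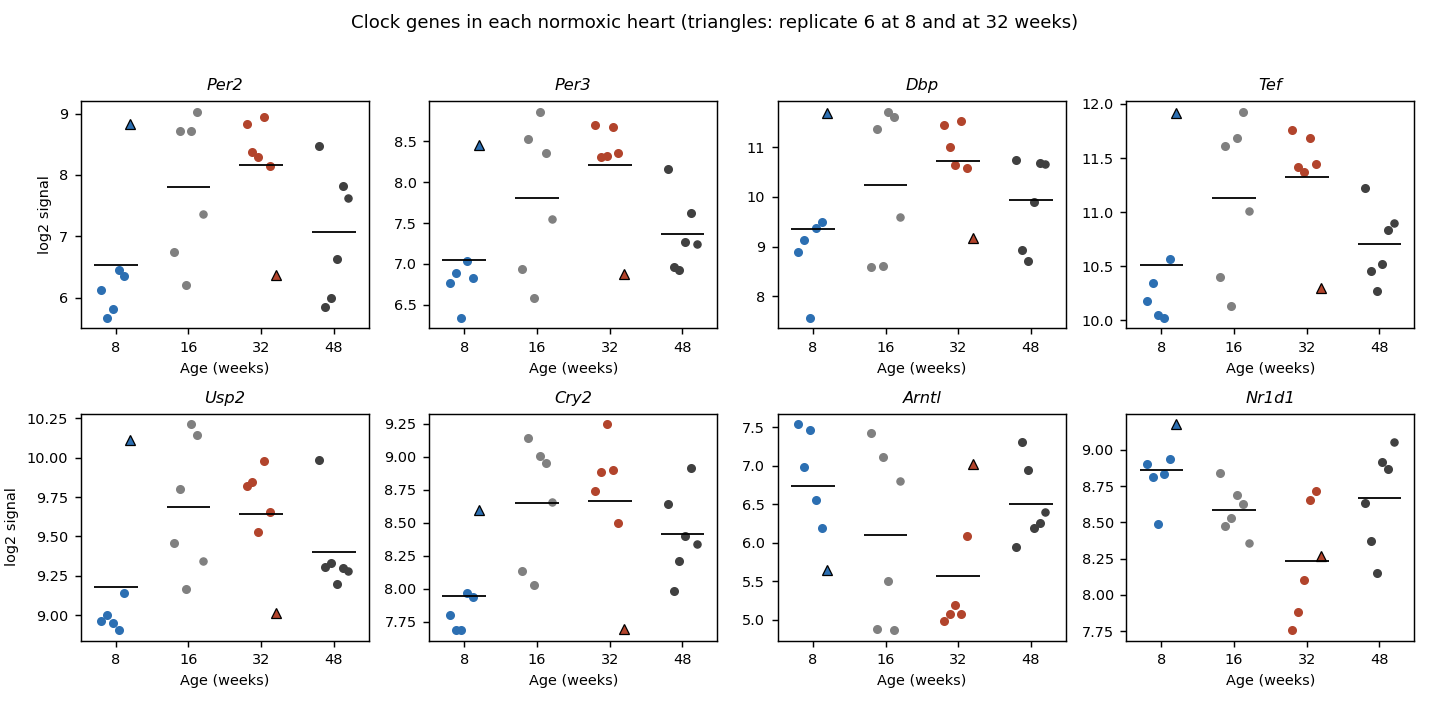
Log2 signal of 8 clock genes in every normoxic heart, by age in weeks on the x axis; each point is 1 heart and the line is the mean of 6. Triangles mark replicate 6 at 8 and at 32 weeks, which lie at the level of the other age in Per2, Per3, Dbp, Tef, Usp2, Cry2 and Arntl, and the 16-week hearts fall at both levels.

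Several large groups gave no call. By limma 0 genes passed among 47 cytosolic ribosomal proteins, 69 mitochondrial ribosomal proteins, 31 complex I subunits, 44 proteasome genes, 55 heat shock genes, 43 genes of glycolysis and glycogen, 34 interferon response genes, 27 antigen presentation genes, 24 cell cycle genes and 22 Wnt genes. At an unadjusted p under 0.05 the counts higher and lower were 1 and 1 for cytosolic ribosomal proteins, 1 and 5 for mitochondrial ones, 0 and 3 for complex I, 0 and 2 for the proteasome, 8 and 6 for heat shock, 5 and 1 for glycolysis, 0 and 3 for interferon, 0 and 4 for antigen presentation, and 0 and 0 for the cell cycle and for Wnt. The members nearest to passing were the heat shock family gene Hspa12a (log2 fold change -0.61, adjusted p = 0.0703), the class II antigen gene H2-Eb1 (-0.59, 0.0744), the complex I subunit Ndufb8 (-0.21, 0.0826), the proteasome activator Psme1 (-0.25, 0.0826) and the glycogen synthase Gys1 (-0.38, 0.0918). A p that misses the threshold does not show that these genes did not differ.

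Hearts of the same ages that went through I/R share no array with the normoxic hearts and show which of the 155 differences were also present there. Between 32 and 8 weeks 3909 genes (39.8%) differed after I/R, 1730 higher (17.6%) and 2179 lower (22.2%). With median centring these were 912 higher and 2353 lower. In these hearts RIN moved with age as well, 7.75 ± 0.226 at 32 weeks and 8.08 ± 0.147 at 8 weeks (SD, n = 6 each), with 11157 to 13662 probes detected at 32 weeks and 13099 to 13854 at 8 weeks. With RIN as a covariate 3634 genes passed. Of the 78 genes higher in normoxic hearts, 57 (73.1%) were above 0 after I/R, against 47.7% of all genes, 39 passed upward and 11 downward. Of the 77 lower, 55 (71.4%) were below 0, against 52.3% of all genes, 33 passed downward and 7 upward. Cds1, Wdfy1, Bdh1 and Ccl11 rose after I/R by 1.23, 1.37, 1.05 and 2.22 (log2, adjusted p = 9.63e-09, 0.000121, 0.000234 and 1.11e-10). Kcne1, Ddc, Tfrc and Col1a1 had log2 fold changes of -1.34, -1.29, -1.57 and -1.65 there (adjusted p = 0.000122, 2.88e-08, 1.31e-05 and 2.02e-08).

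The age difference itself depended on the perfusion protocol in 2251 genes (22.9%), 1286 with a higher (13.1%) and 965 with a lower (9.84%) value in normoxic hearts, and in 61 of the 155. With median centring, which moved the median difference of all genes to 0.13 on the log2 scale, the split was 1480 and 380. Of these 61, 26 were higher and 35 lower at 32 weeks in normoxic hearts. The 155 were chosen by the normoxic difference, which enters this contrast. Differences among them therefore lean towards a larger normoxic change, and the 61 is not free of that choice. Rab4a rose by 1.66 in normoxic hearts and by 0.90 after I/R (difference 0.76 ± 0.25, adjusted p = 0.0245). The genes Plk2, Gadd45g, Dusp5 and Rcan1, which fell in normoxic hearts, had log2 fold changes of 0.08, 0.13, 0.11 and -0.09 after I/R, and the difference passed in each (adjusted p = 0.00244, 0.00971, 0.00944 and 0.0435). Uqcrq, -0.55 in normoxic hearts, was 0.44 after I/R (adjusted p of the difference = 0.00026), and Fmo5, 0.64 in normoxic hearts, was -0.33 (0.00105). Among collagens Col6a1 fell further after I/R, -1.19 (adjusted p of the difference = 0.0342). In 65 of the 155 genes the I/R hearts passed in the same direction with no difference past the threshold. Of all genes 39.8% passed after I/R in either direction, so many would do so in any set. A difference that misses the threshold does not show that the change was the same in both protocols.

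The 5 genes with the smallest p after I/R were not among the 155. Tle5, Ptms, Decr1, Selenow and Cox4i2 had log2 fold changes there of -1.40, -1.58, 1.63, -1.39 and -2.02. In normoxic hearts the same 5 genes gave -0.07, -0.32, 0.11, 0.01 and 0.07 (adjusted p = 0.854, 0.0644, 0.79, 0.987 and 0.929). Tle5, Decr1, Selenow and Cox4i2 together with Cyb5r3 also had the smallest p for the difference between protocols (1.41e-11 for Cyb5r3).

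**Figure D5:**
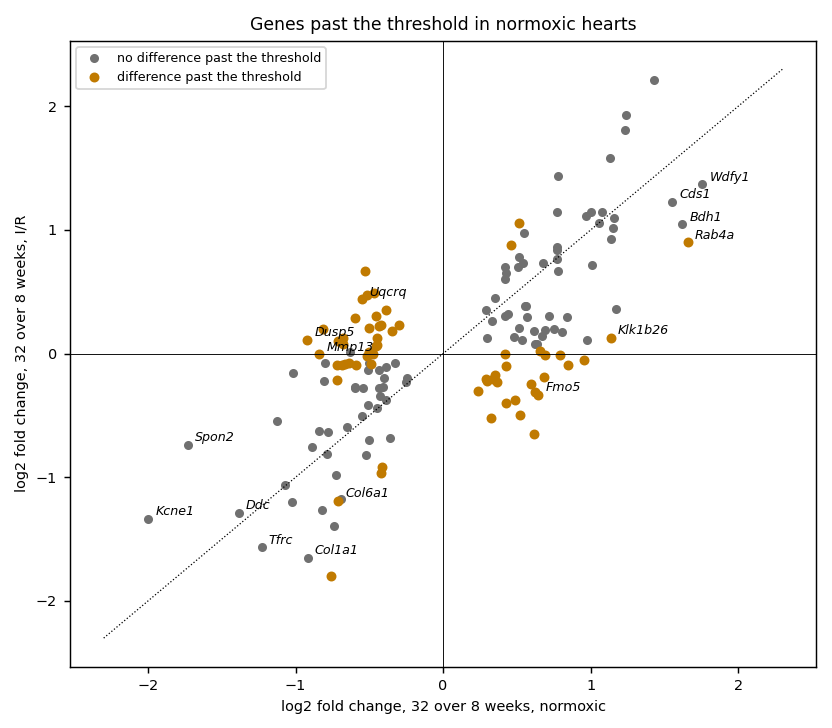
Log2 fold change of 32 over 8 weeks in normoxic hearts (x axis) and in I/R hearts (y axis) for the 155 genes past the threshold in normoxic hearts; the dotted line marks equal values. Orange points are the 61 genes whose difference between protocols passed. Those lower in normoxic hearts lie mostly above the line, as Dusp5 and Uqcrq do. All points were chosen by their normoxic change, so they lean towards a smaller change after I/R.

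A further comparison of older with younger normoxic hearts that shares no array is 48 against 16 weeks, in which 35 genes (0.357%) passed, 27 higher (0.275%) and 8 lower (0.0815%) (46 and 4 with median centring). The count was 12 with RIN as a covariate and 83 with array weights. It was 15 to 43 without single hearts, at 23 without 48-week replicate 1, 19 without 48-week replicate 4, and 23, 20 and 15 without 16-week replicates 3, 4 and 5. Of the 78 genes higher at 32 weeks, 65 (83.3%) were above 0 there, against 47.8% of all genes, and 14 passed. Of the 77 genes lower at 32 weeks, 45 (58.4%) were below 0, against 52.2% of all genes, and 4 passed. Rab4a (1.46), Wdfy1 (1.36), Klk1b26 (1.35), Abat (1.28), Gsta2 (1.25) and Cds1 (1.15) were among those higher at 48 than at 16 weeks (log2 fold changes), and Tnni2 (-1.09), Entpd4 (-0.82) and Ddc (-0.79) were among those lower. The 5 collagen chains had values of -0.58 for Col1a1, -0.23 for Col6a1, -0.12 for Col4a1, -0.26 for Col4a2 and -0.07 for Col15a1, none past the threshold.

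Set side by side over the 4 ages, the group means of the leading genes differed in pattern. The ages are separate animals, and age cannot be told apart from a batch that followed it. These comparisons share hearts, so only group means are given. Wdfy1 averaged 5.97, 6.09, 7.73 and 7.45 at 8, 16, 32 and 48 weeks, and Rab4a 6.62, 6.95, 8.28 and 8.41. In both the larger part of the difference in means lay between 16 and 32 weeks. Entpd4 averaged 12.14, 12.19, 11.30 and 11.37, with the lower means at the same ages, 32 and 48 weeks. Bdh1 averaged 8.91, 9.92, 10.53 and 10.49 and Kcne1 8.87, 7.52, 6.88 and 6.66, so the larger part of their difference lay between 8 and 16 weeks. Cds1 averaged 6.64, 7.32, 8.19 and 8.47 and Amy2a5 8.04, 8.96, 9.18 and 9.67, higher at each later age. Cdkn1a averaged 10.33, 9.90, 9.53 and 10.43, Edn1 9.14, 8.72, 8.51 and 9.31 and Spon2 8.36, 7.47, 6.63 and 8.07, and these 3 were close to the 8-week level again at 48 weeks. By limma 4 genes (0.0408%) differed between 16 and 8 weeks, 5 (0.051%) between 32 and 16 weeks and 0 between 48 and 32 weeks, where 500 genes were at an unadjusted p under 0.05.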

How the data were processed

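The deposited probe intensities are bead averages of each array, not normalized, with a detection value between 0 and 1 (fraction) beside each; per the file headers that column is a detection p, but it rises with the signal (lowest rank correlation 0.995), so 1 minus it was used. The deposited table of the authors' values is close to log2 of each array's intensities (correlation at least 0.992, column medians 7.81 to 7.83), and its transform and between-array normalization are unknown; lumi is named in the submitters' processing notes. It served as an alternative.

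Intensities of all 48 arrays were background-corrected with limma's normexp by detection p (offset 16), quantile-normalized and taken to log2 (R 4.3.3, limma 3.58.1, statmod 1.5.0). Of 46624 probes, 17624 were detected (p under 0.05) on 6 or more arrays; of these 4077 had no symbol. Each of 9811 genes was read from its brightest probe. Of all probes 29971 had 1 symbol in the platform annotation, 10 several and 16643 none, and 29916 symbols were updated through RefSeq. Group means of 8 groups of 6 hearts were fitted with lmFit and eBayes, two-sided, with Benjamini-Hochberg adjustment over all genes. Log2 fold changes of dim genes are understated. No columns were left unmapped, no arrays were identical, and the fit was tested on simulated data.

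The comparison and the gene lists were chosen with earlier results of these data known. The text names the 12 genes with the largest change in each direction among those past the threshold and detected on all 6 arrays of an age, up to 4 members of each list with the smallest p past the threshold (otherwise the 1 nearest), the 5 genes with the smallest p in the I/R comparison and in the difference, and others where stated. Alternatives were median centring, no background correction, offset 50, other filters, probes singly, the next brightest probe, array weights, RIN as a covariate, the replicate block, fewer arrays, the authors' values and single hearts left out. Of probes not above background in all hearts of an age only a bound is given, from the mean of the lowest detected signal. Labels give 1 array per heart replicate; p-values measure the spread between these arrays. All sequences are from RefSeq.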

Additional observations from a re-analysis of the deposited data

Results flagged for a closer look

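In 23 of 194 groups of 6 hearts that were examined, 1 heart lay apart from the others by Dixon's criterion on the gap to the nearest other heart. For a single group chance alone gives about 1 in 20. The groups are the same hearts seen in each named gene, so they are not independent. Whether 23 exceeds chance cannot be read from that rate. Of these 23 hearts, 10 were 8-week replicate 6 and 5 were 32-week replicate 6.

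For 32-week replicate 6 the log2 signals were 6.88 in Per3, 10.29 in Tef, 9.72 in Slc41a3, 7.54 in Mmp13 and 11.65 in Vcam1. All but that of Vcam1 lay towards the level of the 8-week hearts. For 8-week replicate 6 they were 8.45 in Per3, 11.92 in Tef and 6.72 in Spon2, each at or near the level of the 32-week hearts. The same heart lay apart at 12.07 in Etfdh, 9.98 in Gys1, 5.41 in Insig1, 9.17 in Rpl29, 5.13 in C1s1, 7.49 in Pdgfd and 9.09 in Efna1. Among the remaining hearts, 32-week replicate 5 lay apart at 6.94 in Eln and 7.82 in Mybpc2, 32-week replicate 2 at 8.02 in Mfap5 and 9.01 in Myocd, 32-week replicate 4 at 4.99 in Adamts12, and 32-week replicate 3 at 7.41 in C1s1. In the 8-week group replicate 5 lay apart at 11.27 in Cenpa and replicate 4 at 11.85 in Psme1. In Eln, Mfap5, Adamts12, C1s1, Pdgfd, Efna1, Etfdh and Vcam1 the ages did not overlap with these hearts included.

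The age effect of 13 named genes past the threshold differed between normoxic and I/R hearts by limma's interaction contrast, given here as the normoxic minus the I/R log2 fold change of 32 over 8 weeks. It was higher in normoxic hearts for Rab4a by 0.76 (adjusted p = 0.0245), Klk1b26 by 1.01 (0.0148), Col6a1 by 0.48 (0.0342), Etfdh by 0.50 (0.000644) and Fmo5 by 0.98 (0.00105). It was lower for Dusp5 at -1.03 (0.00944), Mmp13 at -0.83 (0.0385), Plk2 at -0.76 (0.00244), Gadd45g at -0.80 (0.00971), Rcan1 at -0.63 (0.0435), Uqcrq at -0.99 (0.00026), Vegfa at -0.50 (0.0418) and Efna1 at -0.66 (0.00108). In Etfdh, Uqcrq, Fmo5, Efna1, Dusp5, Plk2 and Gadd45g the I/R fold change had the opposite sign to the normoxic one, at -0.20, 0.44, -0.33, 0.22, 0.11, 0.08 and 0.13. The 13 genes were chosen by their normoxic change, which enters the contrast and leans it in the normoxic direction.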

How the results depend on the processing

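Of the 97 named genes 62 passed, and all 62 kept their direction in 12 other settings and without each of 12 single hearts, except where another probe was read. In all 12 settings 42 of them passed, and in these and without each heart 30 did. The 155 genes at 32 against 8 weeks became 408 with array weights, 233 on the authors' values, and 233 without both replicate 6 hearts, a choice made after seeing the data. The other settings gave 124 to 217, and single hearts left out gave 94 to 208. With the replicate number as a block (replicate block) 139 genes passed; the numbers do not pair the hearts, since same-numbered hearts correlated at -0.213 to 0.068 in their deviations, and 1 of 6 older hearts correlated best with its own number. At 48 against 16 weeks the 35 genes became 83 with array weights and 12 with RIN as a covariate, and 15 to 43 without single hearts. The next brightest probe reversed Bdh1 (-0.14), Adamts12 (0.12), Cenpa (-0.11), Gys1 (0.29) and Tef (-0.057). Of the 155 genes 41 had a second detected probe, which had the same direction in 35 and the opposite in 6. Adjusted over all probes, 9 of these second probes passed in the same direction and 0 in the opposite. Ager, at 0.05 on the log2 scale, was -0.0356 without both replicate 6 hearts and -0.000415 to 0.14 without single hearts. The cause of these changes was not tested. The number of arrays limits the precision, and genes near background have understated folds.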

Other observations

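Of the 155 genes 92 were on none of the lists; those below are named after their values were seen. Among the rises were 3 histone genes. H2bc21, of the H2B family, was 1.97-fold higher at 32 weeks (log2 fold change 0.98 ± 0.26, adjusted p = 0.037, limma), H3c15 1.79-fold (adjusted p = 0.0315) and H4f16 1.73-fold (adjusted p = 0.0206). Histone genes have near-identical copies, so the gene measured is uncertain, and a second H2bc21 probe gave -0.11. In all 3 the 8-week replicate 6 heart lay below the mean of the other 8-week hearts, at 6.88 against 8.00 in H2bc21, 8.08 against 9.03 in H3c15 and 5.53 against 6.42 in H4f16. Without both replicate 6 hearts none of the 3 passed (adjusted p = 0.104, 0.0957 and 0.0784).

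Acsm5, a mitochondrial enzyme that activates medium-chain fatty acids, was 1.96-fold higher (adjusted p = 0.000575), and Mal, a proteolipid of membrane rafts, 1.93-fold higher (adjusted p = 0.00088). Lower at 32 weeks were Rasl11b, a small GTPase of the Ras family (1.76-fold, adjusted p = 0.00105), Upp1, which breaks down uridine (1.75-fold, adjusted p = 0.00207), and Wfdc1, a secreted protein with a protease inhibitor domain (1.72-fold, adjusted p = 0.000472).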
